A study of Homo sapiens with 15 samples.

Results

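Helix-loop-helix proteins that bind, oppose or pair with the E proteins were examined in human Hodgkin lymphoma cell lines and in non-Hodgkin lines of B cell origin. The 9 genes were the ID genes ID1, ID2, ID3 and ID4, the repressor gene MSC, the E protein genes TCF4 and TCF12, and the partner genes LYL1 and TAL1. All 9 were chosen by name, not by their signals, and all 9 were found among the 19735 genes measured. Each gene was read from the probe set that carries its symbol alone and has the highest mean signal over all arrays.

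E proteins are transcription factors that bind a short DNA element, the E-box, as pairs held together by their helix-loop-helix domains, and they drive the gene programmes of early B and T cells. ID proteins have the helix-loop-helix domain but lack the basic region that contacts DNA, so an E protein bound to one of them cannot bind its target. Musculin, LYL1 and TAL1 do have a basic region, and each can occupy E proteins in a heterodimer with other target genes or with repressive activity.

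Total RNA of the cultured lines was hybridised to 15 Affymetrix expression arrays, with 10 arrays of 6 Hodgkin lines and 5 arrays of 3 non-Hodgkin lines. The lines HDLM2, L540Cy, L540, L428, L1236 and KM-H2 carry the label classical Hodgkin lymphoma. Reh is an acute lymphoblastic leukaemia line of B cells, Namalwa comes from a Burkitt lymphoma, and SU-DHL-4 is labelled as non-Hodgkin lymphoma of B cells. No treatment, engineered allele or transgene is labelled in any group, and each line is 1 established culture standing for its disease. Arrays were duplicated for L428, L1236, KM-H2, HDLM2, Reh and Namalwa and single for L540Cy, L540 and SU-DHL-4. From background knowledge and not from the labels, HDLM2 and L540 derive from T cells, L428, L1236 and KM-H2 from B cells, and L540Cy is a subline of L540.

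Values are log2 signals, and signals of different genes are not set against each other. The array medians lay between 5.50 and 5.56. The spread of duplicate arrays over all genes (SD of the difference divided by the root of 2) was 0.17 to 0.26 log2 for the Hodgkin lines, 0.44 for Reh and 0.37 for Namalwa. The array labelled Reh replicate 1 had high signals for genes otherwise highest in SU-DHL-4. In 22 genes SU-DHL-4 lay more than 3 log2 above each array except Reh replicate 1. Reh replicate 1 had a median of 3.995 log2 more of them than Reh replicate 2. Of the 9 genes examined, 0 were among the 22. The rule picks only genes far higher in SU-DHL-4 than elsewhere, so this count does not show that the 9 genes were unaffected in Reh replicate 1. Of 5 B cell markers, all 5 had a line mean of at least 6 in Reh, Namalwa and SU-DHL-4, whereas 1 to 3 did in the Hodgkin lines. In Reh the level of MS4A1 came from replicate 1, at 11.47, against 4.12 in replicate 2, where 4 of the 5 markers reached 6. At least 1 of 6 T cell markers reached that level in every line. Of the T cell markers, CD2 was highest in HDLM2 of the 9 lines, at 10.75, but CD3E was lowest there, at 5.04. CD2 was 6.70 in L540 and 4.89 in L540Cy. The other T cell markers are named with their values already seen. CD3D was highest in KM-H2, at 8.75 and 8.44, against 5.79 and 5.40 in HDLM2. The line means of CD3E, CD3G, CD5 and CD7 spanned 0.71, 0.61, 0.39 and 0.49 log2. The Hodgkin marker TNFRSF8, which encodes CD30, was higher in Hodgkin lines by 4.92 ± 0.68 log2 (SE; adjusted p = 0.0198), and lost its call without Reh (4.74 log2, 0.067), Namalwa (5.13 log2, 0.0646) or SU-DHL-4 (4.90 log2, 0.0763).

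The Hodgkin lines had more ID2 and MSC transcript and less ID3 transcript than the non-Hodgkin lines. With 5 Hodgkin lines of origin (L540 averaged with L540Cy) set against 3 non-Hodgkin lines, ID2 and MSC rose and ID3 fell at an adjusted p under 0.05, which made 3 of 9 genes called. Over all 19735 genes, 268 or 1.36% were called in this comparison, 150 higher and 118 lower. The line means did not overlap between the groups for 5 of the 9 genes (ID2, ID3, MSC, TCF12 and LYL1), against 10.7% of all genes. The median size of the difference, whatever its sign, was 1.48 log2 over the 9 genes and 0.21 log2 over all genes. The other 6 genes did not pass. Among them LYL1 (-2.47 ± 0.48 log2, adjusted p = 0.0621) and TCF12 (-1.48 ± 0.50 log2, adjusted p = 0.247) had unadjusted p-values under 0.05, so that 5 genes did in all, against 2807 of all genes. P-values were adjusted over all genes by the Benjamini-Hochberg method after limma's moderated test. Bulk RNA cannot tell apart fewer cells with a transcript and less transcript in each cell.

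The promoters of ID2, ID3 and LYL1 are printed for their E-boxes, as examples with 1 window each of a gene that lay above (ID2) and of genes that lay below (ID3 and LYL1) in all Hodgkin lines. The sequences are the 250 bases before the gene start in RefSeq (GRCh38.p14), 5′ to 3′ on the gene's strand, and capitals mark an E-box, searched as CANNTG, which reads the same on both strands.
ID2, chr2:8681806-8682055, plus strand: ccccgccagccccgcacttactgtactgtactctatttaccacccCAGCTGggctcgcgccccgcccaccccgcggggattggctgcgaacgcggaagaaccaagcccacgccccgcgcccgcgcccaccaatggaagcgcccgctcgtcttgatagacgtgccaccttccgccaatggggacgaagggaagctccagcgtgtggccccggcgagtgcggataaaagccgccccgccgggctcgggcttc
ID3, chr1:23559502-23559751, minus strand: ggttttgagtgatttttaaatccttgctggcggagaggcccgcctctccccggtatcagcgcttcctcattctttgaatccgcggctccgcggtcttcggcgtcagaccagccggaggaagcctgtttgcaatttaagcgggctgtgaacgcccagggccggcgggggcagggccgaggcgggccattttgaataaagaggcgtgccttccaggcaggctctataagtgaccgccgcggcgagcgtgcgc
LYL1, chr19:13102859-13103108, minus strand: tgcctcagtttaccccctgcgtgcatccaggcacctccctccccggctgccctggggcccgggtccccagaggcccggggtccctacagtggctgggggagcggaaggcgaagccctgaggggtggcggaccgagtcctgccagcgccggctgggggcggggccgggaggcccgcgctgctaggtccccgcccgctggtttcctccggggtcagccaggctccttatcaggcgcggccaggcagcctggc
The ID2 window held 1 E-box, CAGCTG, whose first base lay 205 bases before the start. The windows of ID3 and LYL1 held 0, but TCF12, which also lay below in all Hodgkin lines, had an E-box in 2 of its 5 windows, CACGTG in one and CATGTG in the other. Of 35116 RefSeq promoter windows of this length, 61.8% held CANNTG at least once and 14.0% held CAGCTG. A match describes letters in the window and is not a shown binding site. RefSeq windows were at hand for 8 of the 9 genes, all but MSC. Of the other ID genes, ID4 had a CAGCTG whose first base lay 21 bases before the start.

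ID2, which restrains E proteins in natural killer cells, innate lymphoid cells and dendritic cells, was the member with the smallest adjusted p. Its signals were 12.69 and 12.86 in HDLM2, 12.54 in L540Cy, 12.54 in L540, 11.09 and 10.65 in L428, 11.91 and 11.80 in L1236 and 12.14 and 12.54 in KM-H2, against 7.17 and 7.40 in Reh, 8.56 and 8.23 in Namalwa and 7.81 in SU-DHL-4. All 10 Hodgkin arrays lay above all 5 non-Hodgkin arrays, with the lowest Hodgkin array in L428 and the highest non-Hodgkin array in Namalwa. The means were 12.08 ± 0.75 in Hodgkin lines and 7.83 ± 0.55 in non-Hodgkin lines (SD over 5 and 3 lines), a difference of 4.24 ± 0.46 log2 (SE; adjusted p = 0.00798). The second ID2 probe set gave 4.46 log2 in the same direction.

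The order of ID2 levels ran from HDLM2 through L540Cy, L540, KM-H2, L1236 and L428 to Namalwa, SU-DHL-4 and Reh. In a limma model of the 15 single arrays, with a mean for each line, neighbours in this order differed at 2 places. L1236 exceeded L428 by 0.98 log2 (adjusted p = 0.00836), and L428 exceeded Namalwa by 2.48 log2 (adjusted p = 1.59e-05). The spread in this fit comes from the 6 duplicated lines, and lines with 1 array were taken to vary like them. Labels call the duplicates biological without naming separate cultures, so these p-values measure the spread between those samples.

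**Figure D1:**
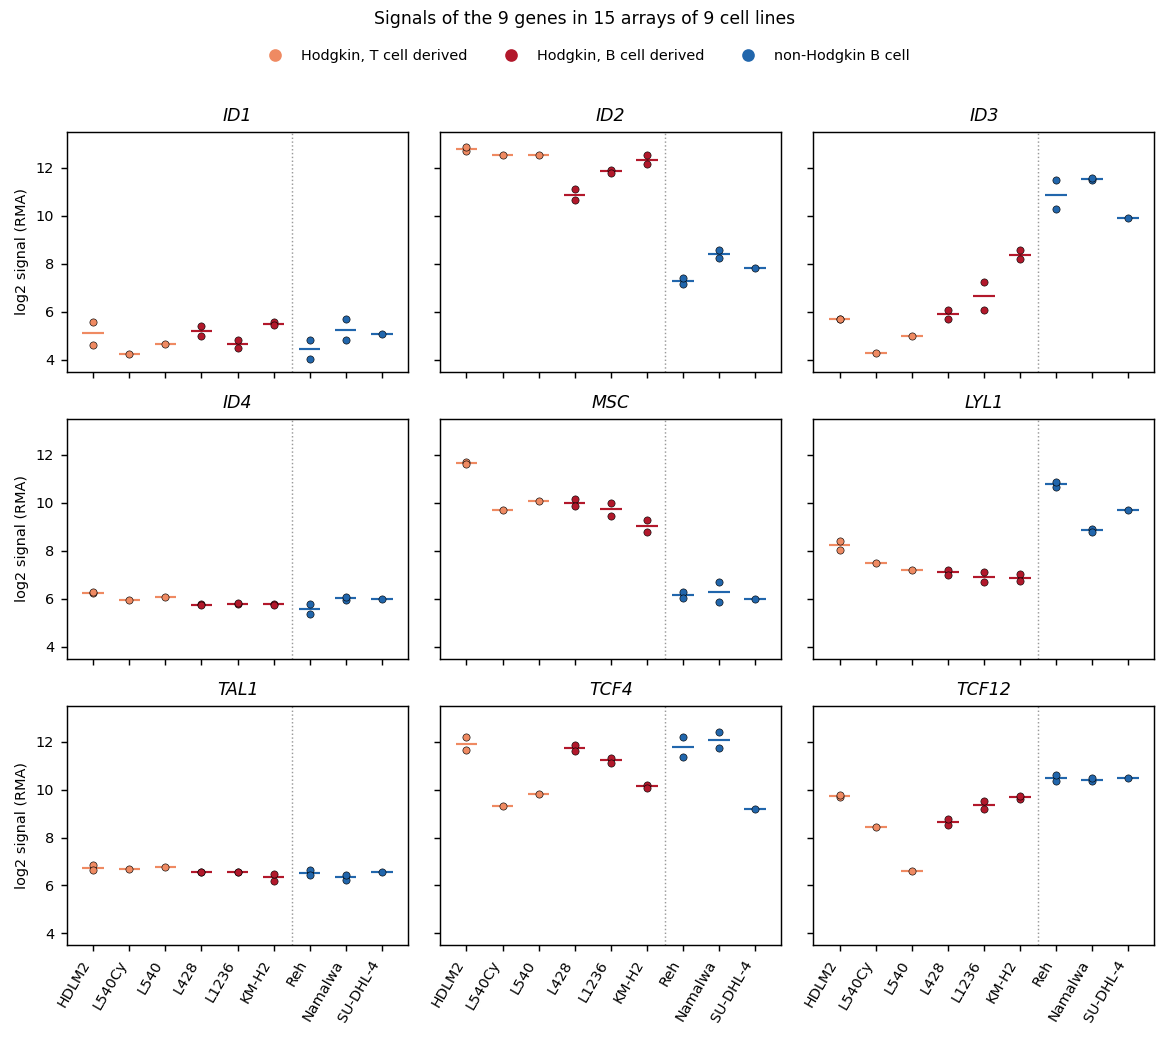
Log2 signal (vertical axis, the same scale in all panels) of the 9 genes in each array (points) and line mean (bars), with Hodgkin lines left and non-Hodgkin lines right of the dotted line. ID2 and MSC lie above and ID3, LYL1 and TCF12 below in every Hodgkin line mean, whereas the groups overlap in ID1, ID4, TAL1 and TCF4.

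ID3, a target of E proteins that in turn limits them in germinal centre B cells and is often mutated in Burkitt lymphoma, moved the other way from ID2. Its signals were 5.71 and 5.71 in HDLM2, 4.28 in L540Cy, 4.998 in L540, 5.70 and 6.06 in L428, 7.23 and 6.07 in L1236 and 8.55 and 8.19 in KM-H2, against 10.27 and 11.48 in Reh, 11.49 and 11.56 in Namalwa and 9.92 in SU-DHL-4. No Hodgkin array reached the lowest non-Hodgkin array, SU-DHL-4, and KM-H2 was the nearest Hodgkin line. The means were 6.25 ± 1.39 in Hodgkin lines and 10.77 ± 0.81 in non-Hodgkin lines (SD, n = 5 and 3 lines), a difference of -4.52 ± 0.81 log2 (SE; adjusted p = 0.0499). This p stands at the threshold. Leaving out any line except KM-H2 (L428, L1236, HDLM2, L540 with L540Cy, Reh, Namalwa or SU-DHL-4) gave adjusted p-values of 0.0724 to 0.161, with differences between -4.95 and -4.12 log2. Without KM-H2 the difference was -5.05 log2 (adjusted p = 0.0136). Leaving out single arrays gave adjusted p-values of 0.041 to 0.0624, above the threshold without L428 replicate 1, L1236 replicate 2, KM-H2 replicate 2, either HDLM2 array, Reh replicate 1 (-4.72 log2, 0.0541) or Namalwa replicate 2 (-4.51 log2, 0.0517).

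Within the Hodgkin lines the SD of ID3 was 1.39 and that of ID2 0.75 log2. For ID3, KM-H2 averaged 8.37 and exceeded its next neighbour L1236 by 1.72 log2 (adjusted p = 0.0128). SU-DHL-4 lay 1.55 log2 above KM-H2, a step that did not pass (adjusted p = 0.0565). From L1236 down through L428, HDLM2 and L540 to L540Cy, and among Namalwa, Reh and SU-DHL-4 at the top, no neighbours differed beyond their spread.

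ID1, induced by bone morphogenetic proteins in many tissues, had 0 of 36 pairs of lines called by limma and 2 at an unadjusted p under 0.05. Its array signals ran from 4.24 to 5.58 in Hodgkin lines and from 4.04 to 5.70 in non-Hodgkin lines, and the groups overlapped fully. The difference was 0.06 log2 (adjusted p = 0.944). ID4, best known from neural and mammary progenitors, had signals of 5.72 to 6.28 in Hodgkin lines and 5.36 to 6.09 in non-Hodgkin lines. Its difference was 0.05 log2 (adjusted p = 0.925), and of its 5 probe sets 3 had a positive and 2 a negative difference. For neither gene does a missed threshold show equal levels. The ID1 probe set averaged 4.95 over all arrays, below the array medians, which began at 5.50. The ID4 probe set used averaged 5.88, and the other ID4 probe sets averaged between 3.28 and 4.02. Signals this low do not show that either transcript was present.

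MSC encodes musculin, also called activated B cell factor, a basic helix-loop-helix repressor that pairs with E proteins. Its signals were 11.68 and 11.60 in HDLM2, 9.69 in L540Cy, 10.07 in L540, 10.14 and 9.86 in L428, 10.00 and 9.44 in L1236 and 8.76 and 9.26 in KM-H2, against 6.28 and 6.03 in Reh, 5.87 and 6.71 in Namalwa and 5.98 in SU-DHL-4. All Hodgkin arrays lay above all non-Hodgkin arrays, which stayed within 1 log2 of each other. The means were 10.05 ± 0.97 in Hodgkin lines and 6.14 ± 0.16 in non-Hodgkin lines (SD, n = 5 and 3 lines), a difference of 3.91 ± 0.53 log2 (SE; adjusted p = 0.0185). The call was lost without Reh (3.92 log2, adjusted p = 0.0571), without Namalwa (3.98 log2, 0.067) or without SU-DHL-4 (3.83 log2, 0.0734).

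HDLM2 stood above all other lines in MSC. It exceeded L540, the next in order, by 1.56 log2 (adjusted p = 0.0173). L540, L428, L1236, L540Cy and KM-H2 followed with no called step between neighbours. KM-H2, the lowest Hodgkin line, exceeded Namalwa by 2.72 log2 (adjusted p = 8.73e-05), and Namalwa, Reh and SU-DHL-4 closed the order without a called step.

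The E protein genes themselves did not pass as a difference between the groups. TCF4, which encodes E2-2, the E protein of plasmacytoid dendritic cells, had signals of 11.63 and 12.19 in HDLM2, 9.29 in L540Cy, 9.82 in L540, 11.85 and 11.62 in L428, 11.33 and 11.11 in L1236 and 10.20 and 10.06 in KM-H2, against 11.37 and 12.21 in Reh, 12.40 and 11.73 in Namalwa and 9.20 in SU-DHL-4. High and low lines occurred in both groups, with SU-DHL-4 lowest and Namalwa highest. The group difference was -0.11 ± 0.82 log2 (SE; adjusted p = 0.967), and 5 of 8 probe sets had a positive and 3 a negative difference, all between -0.14 and 0.32 log2. Along the order of lines, the only called step between neighbours lay between L1236 and KM-H2 (1.09 log2, adjusted p = 0.0283).

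TCF12 encodes HEB, an E protein with a known part in thymocyte development. It had signals of 9.68 and 9.77 in HDLM2, 8.45 in L540Cy, 6.60 in L540, 8.53 and 8.79 in L428, 9.17 and 9.50 in L1236 and 9.60 and 9.73 in KM-H2, against 10.36 and 10.60 in Reh, 10.35 and 10.47 in Namalwa and 10.49 in SU-DHL-4. Every Hodgkin array was below every non-Hodgkin array, and the non-Hodgkin arrays were tightly grouped. In the array fit all 18 pairs of a Hodgkin with a non-Hodgkin line were called, and Namalwa exceeded HDLM2, the highest Hodgkin line, by 0.69 log2 (adjusted p = 0.0132). Over lines the difference was -1.48 ± 0.50 log2 and did not pass (adjusted p = 0.247). All 4 TCF12 probe sets had negative differences, from -2.31 to -0.19 log2. With the most variable probe set in place of the brightest, the difference was -2.31 log2 (adjusted p = 0.0426). Leaving out a line or array gave no call for TCF12, with adjusted p-values of 0.145 to 0.454.

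L540Cy and its parent L540 differed in TCF12. The subline exceeded L540 by 1.85 log2 (adjusted p = 0.00664, 1 array each), and L540 was the lowest of the 9 lines. That call depended on the probe set. Averaging all TCF12 probe sets gave 0.71 log2 (adjusted p = 0.125), and the most variable probe set gave 0.92 log2 (adjusted p = 0.376). None of the other 8 genes differed between L540Cy and L540 at the threshold.

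TCF3, which encodes the E2A proteins, was not one of the 9 genes and stands here as the remaining E protein gene. It averaged 10.73 ± 0.33 in Hodgkin lines and 11.90 ± 0.25 in non-Hodgkin lines (SD, n = 5 and 3 lines). The difference was -1.16 ± 0.22 log2 and just missed the threshold (adjusted p = 0.0555), and 13 of its 14 probe sets had a negative difference. With the mean of all its probe sets the difference was -0.72 log2 and passed (adjusted p = 0.0242). It also passed without L1236 replicate 1 (-1.19 log2, 0.0428) or Reh replicate 2 (-1.18 log2, 0.0416).

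**Figure D2:**
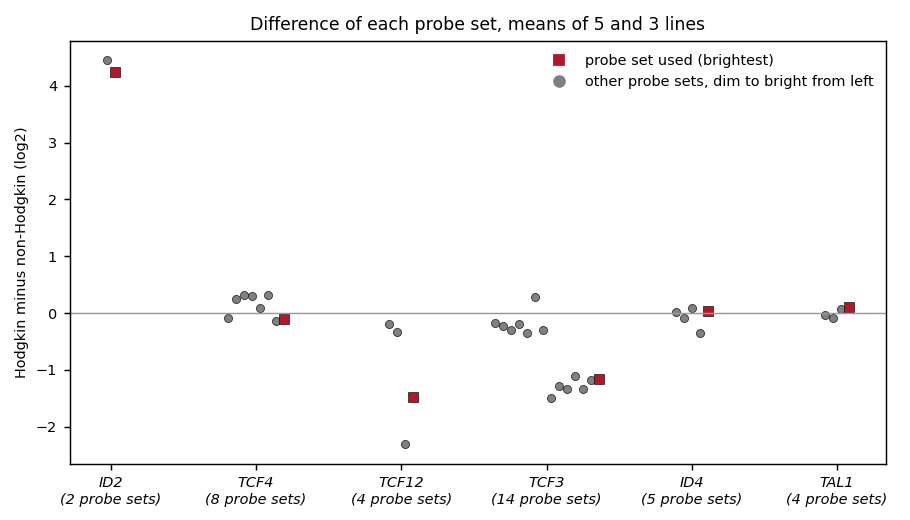
Hodgkin minus non-Hodgkin difference in log2 signal (vertical axis, means of 5 and 3 lines) of each probe set of the 6 genes that have several, ordered from dim to bright within a gene, with the probe set used as a red square. ID2 probe sets are both above 4, all 4 of TCF12 and 13 of 14 of TCF3 are below 0, and those of TCF4 lie on both sides of 0.

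LYL1, a basic helix-loop-helix factor of blood stem and progenitor cells related to TAL1, had lower signals in the Hodgkin lines. They were 8.41 and 8.05 in HDLM2, 7.48 in L540Cy, 7.19 in L540, 7.20 and 6.99 in L428, 7.12 and 6.71 in L1236 and 7.02 and 6.73 in KM-H2, against 10.64 and 10.87 in Reh, 8.89 and 8.79 in Namalwa and 9.70 in SU-DHL-4. The groups did not overlap, and HDLM2 came closest to Namalwa, which lay 0.61 log2 above it (adjusted p = 0.0502). The mean was 7.29 ± 0.56 in Hodgkin lines and 9.76 ± 0.96 in non-Hodgkin lines (SD, n = 5 and 3 lines). The difference of -2.47 ± 0.48 log2 missed the threshold (adjusted p = 0.0621). It passed without Reh replicate 2 (-2.44 log2, adjusted p = 0.0476) and with L540Cy and L540 counted as separate lines (-2.47 log2, adjusted p = 0.0296). The latter setting treats a subline and its parent as independent. Leaving out any line gave no call for LYL1, with adjusted p-values of 0.0559 to 0.178. Reh had the highest LYL1 level, 1.06 log2 above SU-DHL-4 (adjusted p = 0.0292). No other neighbours in the order differed at the threshold.

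TAL1, a regulator of erythroid and stem cells that is switched on in many T cell leukaemias, had signals of 6.19 to 6.84 in Hodgkin lines and 6.22 to 6.63 in non-Hodgkin lines. These ranges overlapped, all line means lay within 0.44 log2 of each other, and limma called 0 of 36 pairs of lines, 2 of which had an unadjusted p under 0.05. The group difference was 0.11 log2 (adjusted p = 0.726), with 2 of 4 probe sets positive and 2 negative. The TAL1 probe set used averaged 6.55 over all arrays, near the median of all genes at 6.53, and the others averaged 6.07, 4.59 and 4.01. These signals do not show that the TAL1 transcript was present, and a missed threshold does not show equal levels. Of 4 erythroid and megakaryocytic markers limma called 0, with 0 at an unadjusted p under 0.05, and their mean signal ran from 6.06 to 6.35 in Hodgkin lines and from 6.22 to 6.47 in non-Hodgkin lines.

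The comparison within B cell derived lines asked whether the pattern depends on the T cell derived lines. With L428, L1236 and KM-H2 set against the 3 non-Hodgkin lines, ID2 rose by 3.86 ± 0.44 log2 (SE; adjusted p = 0.0167), and MSC rose by 3.44 ± 0.48 log2 (adjusted p = 0.0378). These were 2 of 9 genes called, against 0.917% of all genes (181). ID3 differed by -3.81 ± 0.74 log2 (adjusted p = 0.0948), LYL1 by -2.80 ± 0.49 log2 (adjusted p = 0.0747) and TCF12 by -1.24 ± 0.56 log2 (adjusted p = 0.421), and none of these passed. This comparison shares the non-Hodgkin lines with the one above, so the 2 are not independent. The T cell derived lines stayed in the fit as a class of their own and added to its estimate of the spread.

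With so few lines these calls could be lost by leaving out a line, although the differences kept their direction. Over the lines left out, ID2 ran from 3.53 to 4.26 log2 and MSC from 3.23 to 3.72 log2. ID2 was not called without L1236 (3.77 log2, adjusted p = 0.0656) or without SU-DHL-4 (3.85 log2, 0.0667). MSC was not called without L428 (3.23 log2, 0.103), L1236 (3.37 log2, 0.112), Reh (3.45 log2, 0.0956), Namalwa (3.51 log2, 0.112) or SU-DHL-4 (3.36 log2, 0.123). ID3 was called without KM-H2 (-4.51 log2, adjusted p = 0.0411).

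T cell derived and B cell derived Hodgkin lines were then compared, with 2 lines of origin (HDLM2, and L540 with L540Cy) against 3. At the threshold 0 of 9 genes were called by limma, 0 had an unadjusted p under 0.05, and 0.198% of all genes (39) were called. The mean of ID3 was 5.17 ± 0.76 in T cell derived and 6.97 ± 1.27 in B cell derived lines (SD), a difference of -1.79 ± 0.82 log2 (SE; adjusted p = 0.708). MSC averaged 10.76 ± 1.24 in T cell derived and 9.58 ± 0.51 in B cell derived lines, a difference of 1.18 ± 0.53 log2 (adjusted p = 0.704), and its line means overlapped. For ID2 the means were 12.66 ± 0.17 in T cell derived and 11.69 ± 0.75 in B cell derived lines, a difference of 0.97 ± 0.49 log2 (adjusted p = 0.732). A missed threshold with so few lines does not show that the classes were alike.

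**Figure D3:**
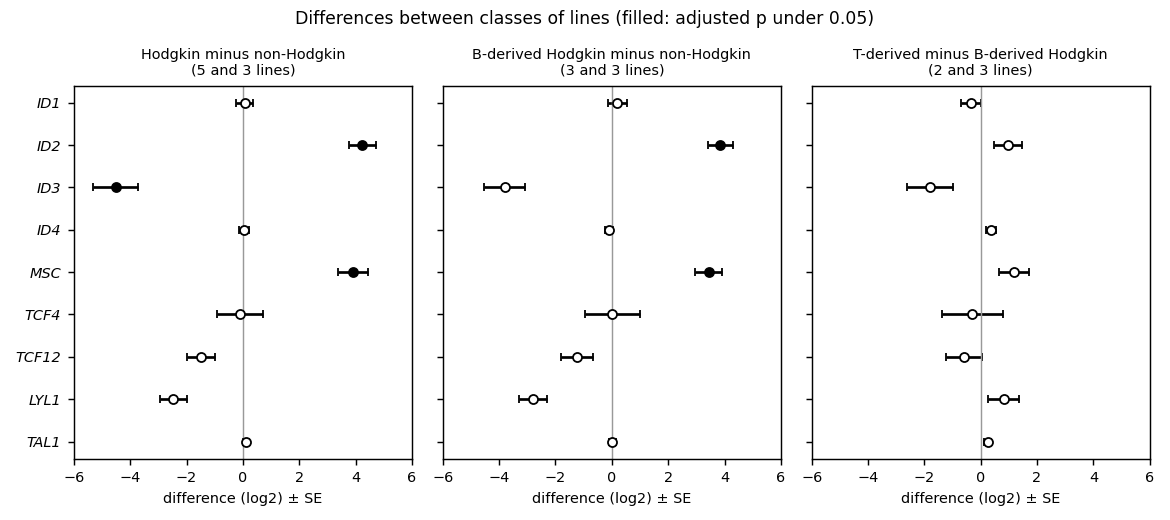
Difference in log2 signal (horizontal axis) with its SE for the 9 genes in 3 comparisons of line means, where filled points passed an adjusted p of 0.05. ID2 and MSC lie between 3.4 and 4.3 in both comparisons with the non-Hodgkin lines, and no point is filled between T cell derived and B cell derived Hodgkin lines.

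Differences among single lines were common over all genes, and 6 of the 9 genes had them. In the F test over the 9 lines 6 of 9 genes were called, against 52% of all genes, and the other 3 were ID1 (adjusted p = 0.285), ID4 (0.0979) and TAL1 (0.4). Over the 36 pairs of lines the 9 genes gave 146 calls of 324, or 45.1%, against 20.2% over all genes. TCF12 had the most called pairs, 29 of 36, and ID2 had 25, MSC 24, ID3 and LYL1 23 each and TCF4 20, whereas ID4 had 2 and ID1 and TAL1 had 0. ID2 and MSC were called in all 18 pairs of a Hodgkin with a non-Hodgkin line, and ID3 and LYL1 in 17 of them. TCF4 was called in 9 of these 18 pairs and in 9 of the 15 pairs within the Hodgkin lines.

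ID2, MSC and ID3 sorted the lines into the same 2 blocks, but their orders within the Hodgkin block differed. KM-H2 had the highest ID3 of the Hodgkin lines and the lowest MSC, and L428 had the lowest ID2 together with the third highest MSC level. Over the 6 Hodgkin lines alone Pearson's r was 0.27 between ID2 and MSC and -0.17 between ID2 and ID3. The 6 lines include a subline and its parent, and the values describe these lines only.

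**Figure D4:**
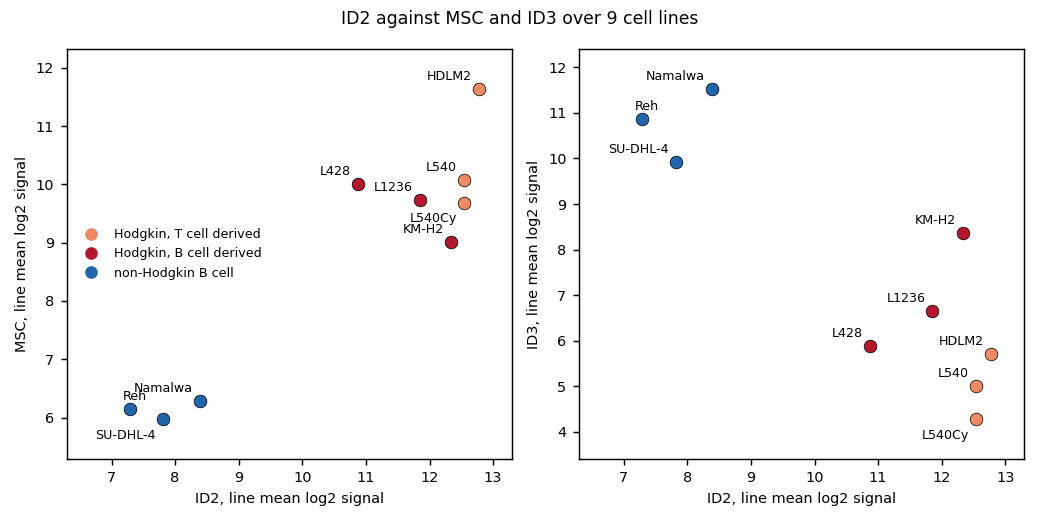
Line means of ID2 (horizontal axis, log2 signal) against MSC (left) and ID3 (right) for the 9 lines. The 6 Hodgkin lines lie apart from the 3 non-Hodgkin lines in both panels, with ID2 above 10.8, and spread without a common order inside their block.

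Genes with the most similar pattern were sought among 2839 genes whose 9 line means spanned at least 3 log2, by Pearson's r over the 9 lines. Because the lines fall into 2 blocks for ID2, ID3 and MSC, such r values mostly rank genes by that division. For ID2 the nearest were PHLDA2 (0.98), IL32 (0.98), an inflammatory cytokine gene, and RNF157 (0.98). For MSC they were TNFRSF8 (0.98), HOXB9 (0.97) and ANXA1 (0.97). For ID3 they were TMEM131L (0.98), TCL1A (0.96), a B cell oncogene, and SLC43A1 (0.96). LYL1 was nearest to P2RY8 (0.96), a receptor of germinal centre B cells, ZNF717 (0.94) and SYTL1 (0.94). TCF12 was nearest to DPH5-DT (0.95), OGFRL1 (0.92) and MAGED1 (0.90). TCF4, ID1, ID4 and TAL1 spanned less than 3 log2 and were not searched.

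Genes that E proteins are known to activate in lymphoid cells included 2 that fell in the Hodgkin lines and 0 that rose, of 12 measured. Over all genes 1.36% were called in this comparison. The 2 that fell were CD79A (-6.36 ± 0.17 log2, adjusted p = 6.03e-06) and CD79B (-5.91 ± 0.16 log2, adjusted p = 6.03e-06), whose products carry the signal of the B cell receptor. With the mean of all probe sets CD79B gave -2.20 log2 and remained called (adjusted p = 0.000424). The median difference of the list was -3.59 log2, with 11 of 12 negative, against a median of -0.02 log2 over all genes. Without Reh, a line of precursor B cells, the list median was -2.49 log2, again with 11 of 12 negative. Of the early lymphoid genes in the list, DNTT lay between 4.79 and 5.30 in Hodgkin arrays, against 13.25 and 14.20 in Reh, 5.87 and 7.16 in Namalwa and 5.32 in SU-DHL-4. RAG1 lay between 3.95 and 4.41 in Hodgkin arrays, against 11.08 and 12.17 in Reh, 4.70 and 4.496 in Namalwa and 4.09 in SU-DHL-4. Both genes, and the median without Reh, were chosen after the values were seen. EBF1 and PAX5, B cell factors that act with E proteins, are named here with their values already seen. They had differences of -3.70 ± 1.08 log2 (adjusted p = 0.186) and -4.12 ± 1.14 log2 (adjusted p = 0.164). PAX5 overlapped between the groups, with 10.99 and 10.63 in L1236 against 10.78 in SU-DHL-4. EBF1 reached 8.98 in KM-H2 replicate 1, against 9.80 in Namalwa replicate 2, the lowest non-Hodgkin array. B cell markers moved with this list, since 3 of 5 fell and 2 of the 3 are CD79A and CD79B themselves. The mean signal of the 5 markers ran from 5.60 to 6.66 in Hodgkin lines and from 10.23 to 11.50 in non-Hodgkin lines (9.71 in Reh replicate 2 alone), and the part of B cell identity in the ID2 and ID3 differences was not tested.

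Inducers of ID genes were the bone morphogenetic protein pathway with its SMAD factors and the EGR genes. They had 1 of 16 measured members higher and 0 lower, against 1.36% of all genes called. The list median was 0.04 log2. The member that rose was ACVR1, a type I receptor for bone morphogenetic proteins and activins. ACVR1 averaged 9.52 ± 0.93 in Hodgkin lines and 4.85 ± 1.03 in non-Hodgkin lines (SD, n = 5 and 3 lines), a difference of 4.67 ± 0.64 log2 (SE; adjusted p = 0.0191). Its call was lost without Namalwa (4.29 log2, adjusted p = 0.075) or SU-DHL-4 (4.47 log2, 0.0766). Its highest non-Hodgkin array was Reh replicate 2, at 6.76, below the lowest Hodgkin array, L1236 replicate 1, at 8.24.

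Partners of TAL1 and LYL1 had 1 of 12 measured members higher and 1 lower, against 1.36% of all genes called. The list median was -0.17 log2. GATA3, the zinc finger factor of T helper cells, rose by 6.53 ± 0.70 log2 (adjusted p = 0.00742). CBFA2T3, a corepressor that joins TAL1 and E protein complexes, fell to 4.68 ± 0.36 in Hodgkin lines, against 8.43 ± 0.94 in non-Hodgkin lines (difference -3.75 ± 0.41 log2, adjusted p = 0.00814). Every Hodgkin array of CBFA2T3 lay between 4.27 and 5.53, and the lowest non-Hodgkin array was SU-DHL-4, at 7.38.

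Other helix-loop-helix partners of E proteins gave 0 calls in limma among 14 measured, in either direction, against 1.36% of all genes called. At an unadjusted p under 0.05 there were 2, TCF3 among them, and the list median was -0.14 log2. The largest differences were those of TWIST1 (1.29 ± 1.05 log2, adjusted p = 0.624) and BHLHA15 (-1.26 ± 0.71 log2, adjusted p = 0.477). Each came from few lines. TWIST1, a mesenchymal regulator, had 7.20 and 8.32 in HDLM2 and 6.44 and 7.25 in L1236, against at most 4.33 in any other array. BHLHA15, the secretory cell factor also called MIST1, had 7.73 and 7.17 in Namalwa and at most 4.51 in any other array.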

How the data were processed

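The authors deposited 1 log2 signal for each probe set and array, computed with RMA (robust multi-array average) per the submitters' processing notes. Which software ran it is not given in the sources used here. RMA subtracts background, makes arrays comparable by normalization and combines the probes of a set, and it compresses differences near background. The table holds 54675 probe sets for 15 arrays. The 62 control probe sets, 1801 with several platform symbols and 11721 without one were not used, and the brightest probe set stood for each of the 19735 genes matched in RefSeq. No dim gene was removed.

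Arrays were averaged per line, L540 with L540Cy, and groups of lines were compared by the moderated test of limma (version 3.58.1, lmFit and eBayes, run in R 4.3.3). Tests were two-sided, their p-values were adjusted over the 19735 genes by Benjamini-Hochberg, and called means an adjusted p under 0.05. The 3 classes of lines (B cell derived Hodgkin, T cell derived Hodgkin and non-Hodgkin) shared 1 fit for the comparisons by origin. Single lines were compared in a fit of all arrays with 6 residual degrees of freedom, and pairs of lines were adjusted over genes within each pair. The number of arrays limits the precision. Error ranges are the SD over lines or the SE of the fit. The code was tested on simulated data.

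The genes, lists and tests were chosen with earlier results of these data known. Every one of the 9 genes is named. From a list, up to 3 called genes in each direction are named, or the 2 with the largest difference where none was called; the names of list genes outside this rule are marked in the text. Alternatives changed the probe set per gene, the scaling, the dim filter (log2 signal of 6), the variance model, the unit of replication and the lines or arrays included.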

Additional observations from a re-analysis of the deposited data

How the results depend on the processing

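ID2 kept its call in all 32 alternatives of the comparison of Hodgkin with non-Hodgkin lines (3.97 to 4.55 log2), and MSC kept its direction in all (3.51 to 4.17 log2). ID3 kept its direction and lost its call in 15 of the 32, among them centring the arrays on their medians (adjusted p = 0.0509). Leaving out a line or array gave 1 to 4 called genes of the 9, with 1 without Reh, Namalwa or SU-DHL-4, and for B cell derived lines 0 to 3, with 0 without L1236 or SU-DHL-4. A fit of the 12 numbered arrays gave 5 calls, 2 higher and 3 lower, both with the replicate block and with no replicate block, adding LYL1 and TCF12. This fit left out L540Cy, L540 and SU-DHL-4 and also used arrays in place of line means, with the line as a random block, and the shares of these changes were not separated. For each duplicated line the deviation of replicate 1 from the line mean was taken over all genes and correlated between lines. These correlations of deviations ran from -0.07 to 0.36 over 15 pairs of lines, with a median of 0.20 and 10 over 0.1. Since the labels name no shared batch and not every pair exceeded 0.1, the replicate numbers were not treated as a pairing. Outside the fit with the replicate block, an effect shared by same-numbered arrays was therefore not modelled. LYL1 was called in 6, TCF3 in 8 and TCF12 in 3 of 32 alternatives. Over all genes the 268 calls became 423 with L540Cy and L540 as separate lines, 1072 with arrays and the line as a random block, 570 and 690 in the 12 numbered arrays with and with no replicate block, and 146 to 397 without a line or array. The 181 calls of B cell derived lines became 125 to 298 without a line or array, and the 39 calls between T cell derived and B cell derived lines 82 with separate lines, 23 with a dim filter and 18 to 139 without a line or array. Of genes that E proteins activate, 2 to 7 were called, with 7 in the fit that gave 1072 calls over all genes.

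Values that changed sign belonged to genes that were called neither before nor after (smallest adjusted p = 0.31). In the comparison of Hodgkin with non-Hodgkin lines, the mean of probe sets gave TCF4 0.12 and ID4 -0.0585 log2, and the most variable probe set gave TCF4 0.30, ID4 -0.35 and TAL1 -0.0365. ID1 was -0.0297 with L540Cy and L540 as separate lines. In B cell derived lines TAL1 was -0.0886, -0.21 and -0.0362 with the mean, the most variable probe set and quantile normalization, which gave TCF4 -0.016. Between T cell derived and B cell derived lines the most variable probe set gave TCF12 0.37, TCF3 -0.31 and TCF4 0.0023. Leaving out a line or array moved ID1 between -0.18 and 0.23 log2, ID4 between -0.0999 and 0.12 and TCF4 between -1.02 and 0.42 with all Hodgkin lines. For B cell derived lines it moved ID1 between -0.0433 and 0.43, TAL1 between -0.0562 and 0.0895 and TCF4 between -0.90 and 0.54. Between T cell derived and B cell derived lines it moved TCF12 between -1.70 and 0.50, TCF3 between -0.19 and 0.42 and TCF4 between -1.48 and 0.88. The cause of these changes was not tested.

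Lines with 1 array, 3 non-Hodgkin lines from 3 diseases and single probe sets for ID1, ID3, LYL1 and MSC limit these results. Disease and cell of origin cannot be told apart for the T cell derived lines. The alternative without a RefSeq match was chosen after seeing the data, and it called the same number of genes, 3 and 2.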
